A study of Danio rerio with 6 samples.

Results

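The genes described here are 10 genes of the endothelium, the cell layer that lines blood and lymph vessels. They were taken by name from a list of vascular genes, and each name matched 1 record of the 25432 genes in the count table. The names were kdrl, kdr, flt1, flt4, tie1, tek, fli1a, cdh5, pecam1 and egfl7. RNA was measured by sequencing of polyadenylated transcripts from whole zebrafish embryos, 72 hours after fertilization. The study compared embryos that received a control morpholino (control-MO, 3 libraries) and embryos that received one directed at wbp11 (wbp11-MO, 3 libraries), and each library came from a pool of 50 embryos. Morpholinos are antisense oligomers that block translation or splicing of a target transcript. The labels give neither strain nor dose, and do not say which kind was used. The series title names the wbp11-MO embryos a model of VACTERL association, a set of human malformations that includes the heart.

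Vessels grow when VEGF ligands bind receptor tyrosine kinases on endothelial cells, and they mature and stay sealed through angiopoietin and Tie signalling and through cadherin junctions. ETS transcription factors, fli1a among them, switch on much of the endothelial programme. In a zebrafish embryo at this stage blood circulates through a trunk, head and intestinal network, and lymphatic vessels have begun to form. In whole-embryo RNA, fewer endothelial cells and less RNA per endothelial cell cannot be told apart.

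Library totals ran from 11219706 to 13669995 counts, and 20012 genes had enough counts to be tested, all 10 members among them. Of the genes tested, 12349 or 61.7% differed between the groups (edgeR quasi-likelihood test, Benjamini-Hochberg adjusted p under 0.05 over all genes tested, which is what "called" means below). The share called higher in the wbp11-MO libraries was 30.5% and the share called lower 31.2%. The wbp11 transcript itself was not lower in the libraries labelled wbp11-MO. Of its 2 records, the one on chromosome 3 had a log2 fold change of 0.72 (edgeR adjusted p = 4.7e-06) and the one on an unplaced scaffold 0.30 (edgeR adjusted p = 0.10). A translation-blocking morpholino need not lower its target transcript, so this value is no check of the labels, and wbp11-MO below means the libraries labelled so.

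Among the 10 endothelial genes, 2 rose (kdrl and egfl7), 2 fell (flt1 and tek) and 6 were not called, so that 40.0% were called where 61.7% of all tested genes were. The groups did not overlap in the same 4 members, where 65.4% of all tested genes had groups that did not overlap. The median log2 fold change over the 10 was -0.06, against 0.0013 over all genes tested, and the median size of the change without its sign was 0.19 against 0.45. Summed over the 10 members, the level in CPM (counts scaled to a common library size with TMM factors) was 252.6 ± 8.88 in the control-MO libraries and 252.3 ± 1.52 CPM in the wbp11-MO libraries (SD, n = 3 each), and the libraries of the groups overlapped. The change of tek was the sole one among the 10 that reached 2-fold. The share of all tested genes with a change of that size was not computed.

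**Figure D1:**
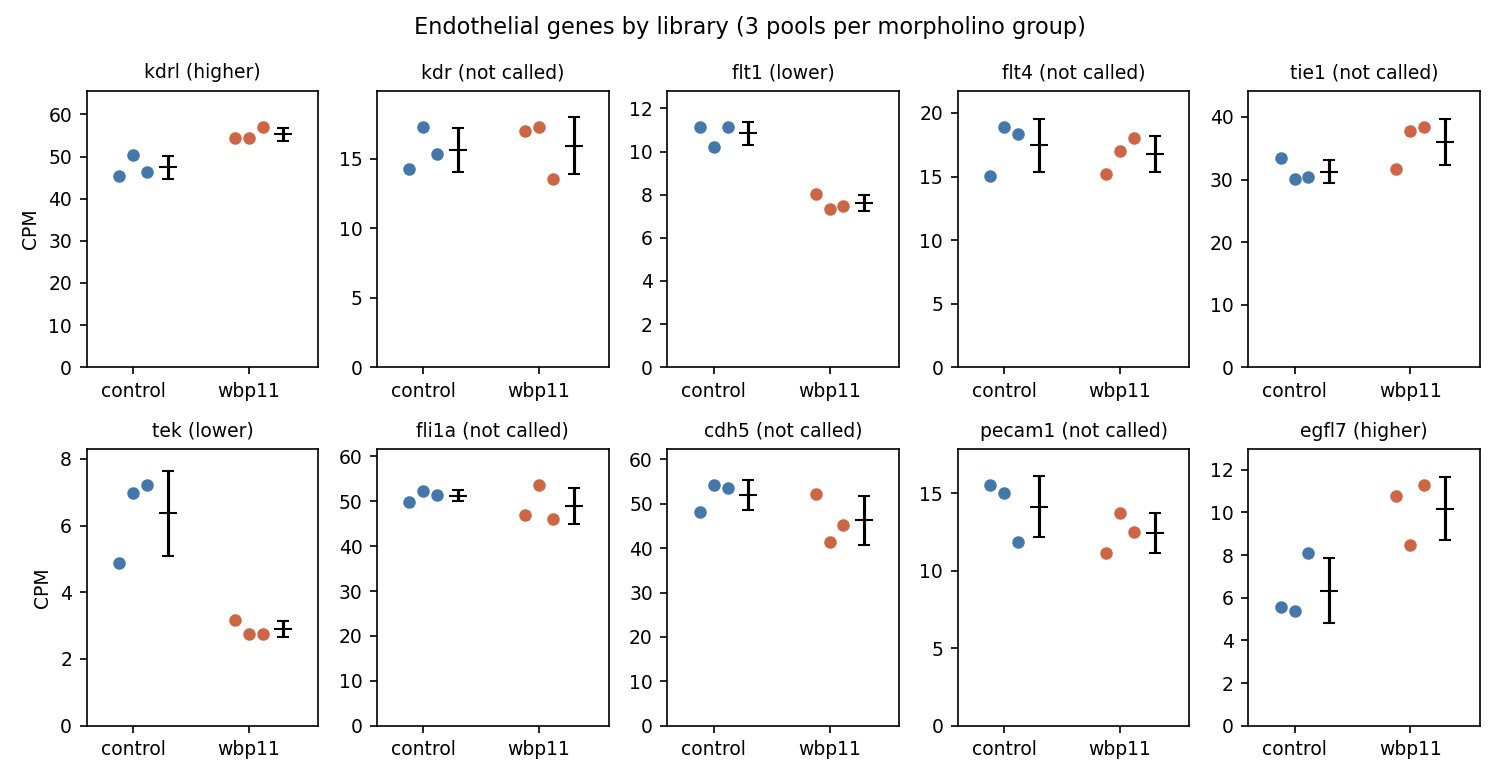
Level of each member in every library. The vertical axis is CPM from 0, points are the 3 control-MO (blue) and 3 wbp11-MO (orange) libraries, and bars give the mean and SD. The groups are apart for kdrl, flt1, tek and egfl7 and overlap for the other members.

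The 4 VEGF receptors did not move together. The gene kdrl (ENSDARG00000105215, chromosome 14, 32983769 to 33044955, GRCz11, minus strand) encodes the receptor that carries most VEGF-A signalling in zebrafish vessels and is a standard endothelial marker. It stood at 45.4, 50.5 and 46.4 CPM in the control-MO libraries and at 54.4, 54.3 and 57.1 CPM in the wbp11-MO libraries. All 3 wbp11-MO values lay above the highest control, and the log2 fold change was 0.22 (standard error 0.07, edgeR adjusted p = 0.0081), a rise of 1.17-fold. This small rise depended on how libraries were scaled. With library totals and no TMM factors, a setting chosen after seeing the data, the log2 fold change was 0.15 and the edgeR adjusted p 0.082, the full range over all settings being 0.0038 to 0.082.

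The gene kdr (ENSDARG00000017321, chromosome 20, 22220988 to 22277544, plus strand) encodes a second VEGF-A receptor that acts beside Kdrl. Its values were 14.2, 17.3 and 15.3 CPM in the controls and 17.0, 17.3 and 13.6 CPM in the wbp11-MO libraries. The groups overlapped throughout, and the log2 fold change was 0.03 with a 95% interval from -0.23 to 0.30 (edgeR adjusted p = 0.83). Its sign turned under several alternatives, with values between -0.04 and 0.13.

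The gene flt1 (ENSDARG00000019371, chromosome 24, 21750810 to 21808819, minus strand) encodes a receptor that binds VEGF-A tightly, signals weakly and also exists in a secreted form, so that it limits the VEGF-A that reaches Kdrl. It was measured at 11.2, 10.2 and 11.2 CPM in the controls and at 8.05, 7.35 and 7.46 CPM after the wbp11 morpholino. Every wbp11-MO library lay below every control, from 91 to 109 counts against 120 to 153. The log2 fold change was -0.51 (standard error 0.16, edgeR adjusted p = 0.0058), and the call held in all 14 alternatives run for it. Gene-level counts do not separate the membrane-bound from the secreted form.

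The gene flt4 (ENSDARG00000104453, chromosome 14, 15816509 to 15956921, minus strand) encodes the VEGF-C receptor that marks veins and lymphatic vessels at this stage. It stood at 15.03, 18.9 and 18.4 CPM in the controls and at 15.2, 17.0 and 18.01 CPM in the other group. The wbp11-MO values all fell within the range of the controls, and the log2 fold change was -0.06 with a 95% interval from -0.31 to 0.19 (edgeR adjusted p = 0.71).

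Of the Tie receptor genes, tek fell and tie1 was not called. The gene tek (ENSDARG00000028663, chromosome 5, 480119 to 496781, plus strand) encodes Tie2, the receptor for angiopoietins. It had 67, 82 and 99 counts in the controls and 43, 34 and 34 counts in the wbp11-MO libraries, or 4.89, 6.99 and 7.22 against 3.18, 2.75 and 2.76 CPM. The highest wbp11-MO library was below the lowest control, and the log2 fold change was -1.13 (standard error 0.24, edgeR adjusted p = 1.2e-04). It ran from -1.29 to -1.03 over the 14 alternatives and was called in each. At 248 reads over the controls and 111 over the wbp11-MO libraries, tek was the least covered member.

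The gene tie1 (ENSDARG00000004105, chromosome 6, 33979523 to 34008901, minus strand) encodes the other Tie receptor, which modulates Tek. It stood at 33.4, 30.01 and 30.3 CPM in the controls and at 31.8, 37.7 and 38.5 CPM in the wbp11-MO libraries. Replicate 1 of the wbp11-MO group lay among the controls and the others above them. The log2 fold change was 0.20 ± 0.09 (SE) and was not called (edgeR adjusted p = 0.057). It was called without wbp11-MO replicate 1 (edgeR adjusted p = 0.014) and without control-MO replicate 1 (edgeR adjusted p = 0.042), the range over all settings being 0.014 to 0.23.

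The transcription factor gene fli1a and the junction genes cdh5 and pecam1 were not called. The gene fli1a (ENSDARG00000054632, chromosome 18, 48423973 to 48487875, plus strand) encodes an ETS factor of endothelium that is also expressed in neural crest cells of the pharyngeal arches. It stood at 49.9, 52.3 and 51.5 CPM in the controls and at 47.0, 53.6 and 46.2 CPM in the wbp11-MO libraries. The wbp11-MO values lay on both sides of the controls. Its log2 fold change of -0.07 had a 95% interval from -0.22 to 0.09 (edgeR adjusted p = 0.46).

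The gene cdh5 (ENSDARG00000075549, chromosome 7, 44445595 to 44471544, plus strand) encodes VE-cadherin, which joins endothelial cells to each other. It was measured at 48.1, 54.2 and 53.6 CPM in the controls and at 52.2, 41.4 and 45.2 CPM in the wbp11-MO libraries. Replicate 1 of the wbp11-MO group again lay within the control range and the others below it. The log2 fold change was -0.16 ± 0.08 (SE) and was not called (edgeR adjusted p = 0.080). It was called without wbp11-MO replicate 1 (edgeR adjusted p = 0.0085), without control-MO replicate 1 (edgeR adjusted p = 0.040), with upper-quartile factors (edgeR adjusted p = 0.035) and with library totals (edgeR adjusted p = 0.019), and the range over the alternatives was 0.0085 to 0.38.

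The gene pecam1 (ENSDARG00000060263, chromosome 3, 59784632 to 59822428, plus strand) encodes an adhesion protein that in mammals sits at endothelial borders and on platelets and leukocytes. Its values of 15.5, 15.01 and 11.9 CPM in the controls and 11.2, 13.7 and 12.5 CPM in the wbp11-MO libraries overlapped. The log2 fold change was -0.18 with a 95% interval from -0.47 to 0.10 (edgeR adjusted p = 0.26). The estimates for cdh5 and pecam1 were below 0 in all 14 alternatives.

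The gene egfl7 (ENSDARG00000100657, chromosome 21, 7228467 to 7265219, minus strand) encodes a secreted matrix protein of endothelium needed for vessels to form open tubes. It had 76, 63 and 111 counts in the controls and 146, 105 and 139 in the wbp11-MO libraries, or 5.54, 5.37 and 8.09 against 10.8, 8.48 and 11.3 CPM. The highest control and the lowest wbp11-MO library were close to each other, and the remaining libraries were well apart. The log2 fold change was 0.68 (standard error 0.18, edgeR adjusted p = 0.0020), a rise of 1.601-fold, and the call held in all 14 alternatives.

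**Figure D2:**
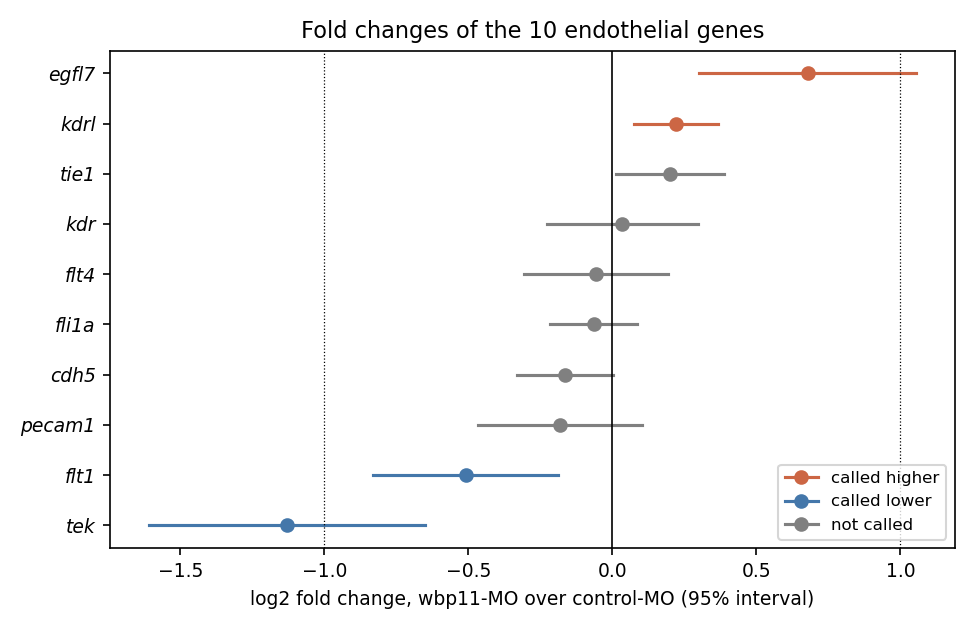
Fold change of each member. The horizontal axis is the log2 fold change of wbp11-MO over control-MO, points are edgeR estimates, lines their 95% intervals, and dotted lines mark a 2-fold change. The 6 members that were not called have intervals that stay between -0.47 and 0.39.

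For the 6 members that were not called, the 95% intervals of the log2 fold change lay between -0.47 (the lower end for pecam1) and 0.39 (the upper end for tie1). A change of 2-fold was outside each of these intervals, while smaller changes were not. These intervals are not adjusted for the number of genes tested, which is why the one for tie1 leaves out 0 although its adjusted p missed the threshold.

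Levels of different genes were compared with the deposited FPKM values, which divide by gene length. In the controls fli1a had the highest FPKM at 16.2 ± 0.63, followed by kdrl at 8.40 ± 0.62, cdh5 at 7.87 ± 0.60 and egfl7 at 4.87 ± 1.13 (SD, n = 3 each). The libraries of kdrl and cdh5 overlapped in FPKM, so their order is not beyond the spread. Next came tie1, flt4, kdr and pecam1, from 3.50 to 2.71 FPKM, each overlapping its neighbour in this order, and then flt1 at 2.02 ± 0.07 and tek at 1.85 ± 0.39 FPKM, which also overlapped. In the wbp11-MO libraries fli1a and kdrl kept the leading places at 14.7 ± 1.16 and 9.30 ± 0.22 FPKM. The gene egfl7, at 7.46 ± 1.12 FPKM, stood beside cdh5 at 6.66 ± 0.88 FPKM with overlapping libraries, and tek, at 0.80 ± 0.08 FPKM, was below flt1 at 1.35 ± 0.09 FPKM without overlap. FPKM uses library totals without TMM factors, and on that scale 1 control-MO and 1 wbp11-MO library just crossed for kdrl (9.11 and 9.08 FPKM) and for egfl7 (6.18 and 6.17 FPKM).

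**Figure D3:**
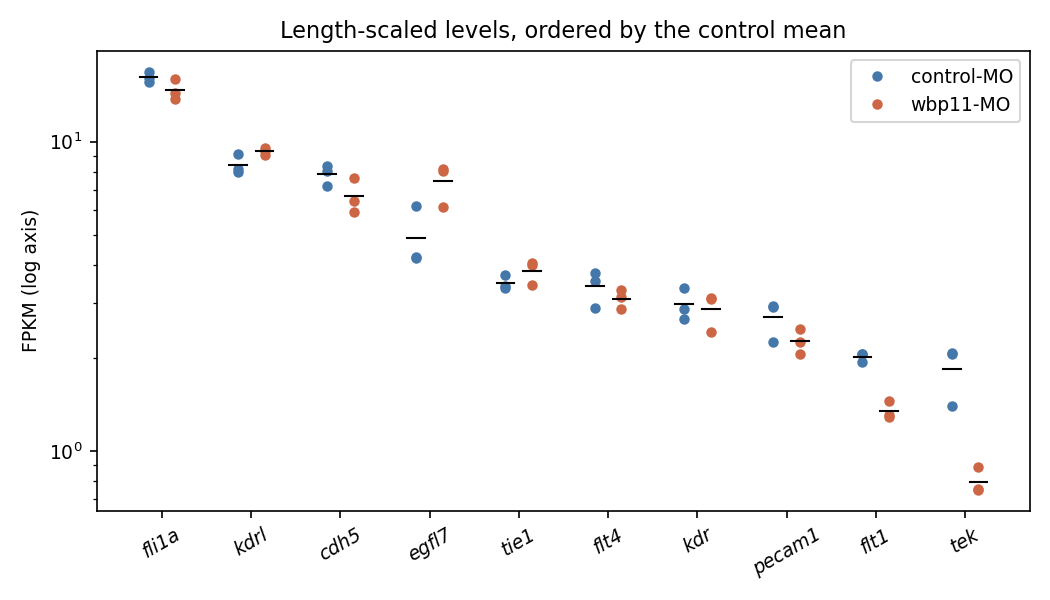
Deposited FPKM of each member, on a log axis, in order of the control-MO mean. Points are libraries and black lines group means. In the controls fli1a leads at 16.2 FPKM and tek is last at 1.85 FPKM, and the distance between flt1 and tek is wider in the wbp11-MO libraries.

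Ratios of counts between members of the same library do not depend on how libraries are scaled, and 8 of them were compared. With 3 libraries against 3 the smallest possible p of the exact permutation test is 0.10. Adjustment over the 8 cannot lower it, so none could pass a threshold of 0.05. The smallest value seen after Benjamini-Hochberg adjustment of the exact permutation p was 0.13. Relative to kdrl, the log2 ratio of flt1 went from -2.12 ± 0.15 to -2.85 ± 0.09, that of cdh5 from 0.13 ± 0.07 to -0.26 ± 0.18, that of fli1a from 0.11 ± 0.05 to -0.18 ± 0.15 and that of flt4 from -1.45 ± 0.13 to -1.72 ± 0.10 (SD, n = 3, exact permutation p = 0.10 each, two-sided). Each of these was lower in every wbp11-MO library than in any control. So, on a measure free of scaling, kdrl was higher relative to these members in the wbp11-MO libraries. This describes the libraries and is no test result, and how often ratios of other genes are separated was not computed. These ratios share kdrl and are not independent, and a ratio does not tell a rise of kdrl from a fall of the other member. The log2 ratio of kdr to kdrl went from -1.60 ± 0.07 to -1.80 ± 0.24, with overlapping libraries (exact permutation p = 0.20).

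Of the other ratios, that of tek to tie1 moved most, from -2.31 ± 0.39 to -3.62 ± 0.27 on the log2 scale, and that of egfl7 to fli1a went from -3.03 ± 0.32 to -2.27 ± 0.34 (SD, n = 3, exact permutation p = 0.10 each). Both were separated between the groups. The log2 ratio of pecam1 to cdh5 was -1.88 ± 0.27 in the controls and -1.89 ± 0.32 in the wbp11-MO libraries (exact permutation p = 0.90), and the libraries overlapped.

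**Figure D4:**
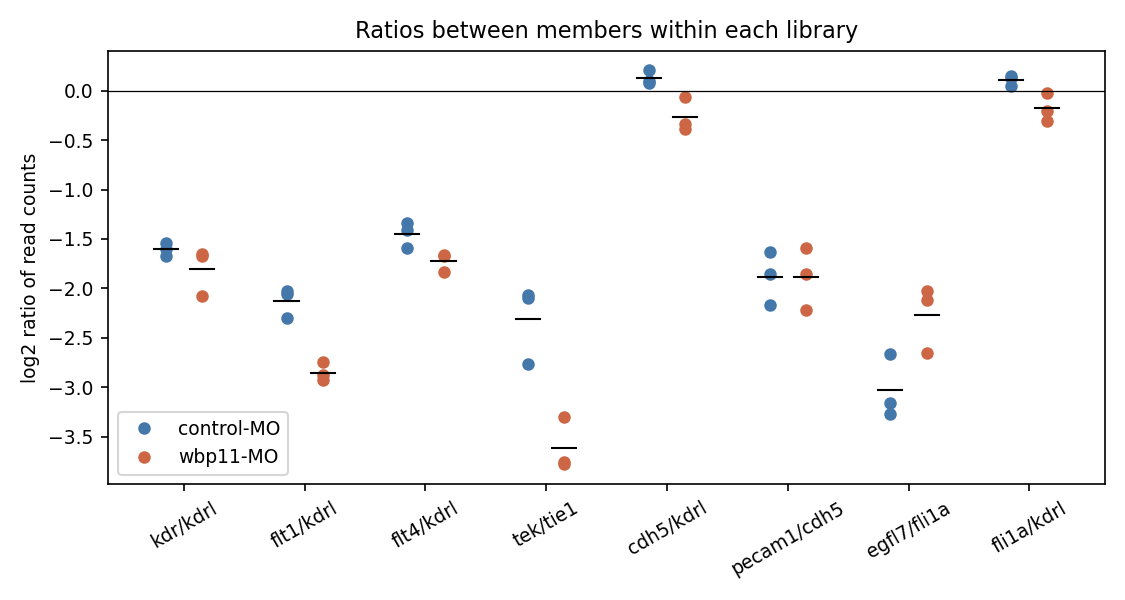
Log2 ratio of read counts between members within each library, for control-MO (blue) and wbp11-MO (orange), with black lines at the group means. The ratios of tek to tie1 and of flt1 to kdrl lie lower in every wbp11-MO library, while those of pecam1 to cdh5 and of kdr to kdrl overlap.

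Of 6 VEGF ligand genes tested, 3 rose and 0 fell, and 3 were not called. The share called was 50.0%, beside 61.7% of all tested genes. The VEGF-A gene vegfab rose from 21.9 ± 2.12 to 31.9 ± 1.01 CPM and its paralog vegfaa from 13.2 ± 1.09 to 19.4 ± 1.49 CPM, by log2 fold changes of 0.54 and 0.55 (standard errors 0.10 and 0.12, edgeR adjusted p = 1.8e-05 and 2.4e-04). Of the 4 neuropilin genes, whose products are co-receptors for VEGF and for the axon guidance semaphorins, 3 fell and 1 rose. With the 4 VEGF receptor genes kept in, 75.0% of this list were called, beside 61.7% of all tested genes. The gene nrp1a fell from 121.5 ± 3.42 to 91.6 ± 5.38 CPM and nrp2b from 109.4 ± 1.14 to 83.9 ± 3.53 CPM. The gene nrp2a rose by a log2 fold change of 0.20 (edgeR adjusted p = 0.0033), which missed the threshold with library totals and no TMM factors (edgeR adjusted p = 0.055, range over all settings 0.0021 to 0.055). The remaining one, nrp1b, chosen after its values were seen, fell by 0.63 on the log2 scale. Neuropilins are also abundant in neurons. Of 10 neuron marker genes, 9 fell and elavl3 rose, so all 10 were called, beside 61.7% of all tested genes. Their summed levels ran from 2284 to 2330 CPM in the controls and from 1254 to 1341 CPM in the wbp11-MO libraries. The part of neurons in the neuropilin values was not tested.

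Around the Tie receptors, 4 of 7 further genes rose and 1 fell. With tek and tie1 kept in, 66.7% of this list were called, beside 61.7% of all tested genes. The phosphatase gene ptprb, whose mammalian product (VE-PTP) removes phosphate from Tie2 and VE-cadherin, fell with tek, from 27.9 ± 3.46 to 14.6 ± 0.87 CPM (mean ± SD of 3 libraries), for a log2 change of -0.94 (standard error 0.11, edgeR adjusted p = 1.7e-08). The ligand gene angpt1 rose from 8.86 ± 0.45 to 12.3 ± 1.91 CPM (edgeR adjusted p = 0.0081), a call lost without wbp11-MO replicate 1 (edgeR adjusted p = 0.060, range over all settings 0.0028 to 0.060). The matrix protein gene svep1, needed for lymphatic growth in zebrafish, rose by 0.80 ± 0.08 on the log2 scale (SE).

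Of 21 other endothelial transcription factor genes, 7 were higher, 5 lower and 9 not called. With fli1a kept in, 54.5% of this list were called, beside 61.7% of all tested genes. The ETS factor gene ets2 rose from 19.4 ± 0.805 to 52.8 ± 8.19 CPM and the Krüppel-like factor gene klf6a from 116.6 ± 5.24 to 256.9 ± 8.86 CPM. Of the genes for Krüppel-like factors that respond to blood flow, klf2a fell from 33.5 ± 2.29 to 15.7 ± 0.89 CPM and klf2b from 63.5 ± 4.40 to 44.4 ± 2.10 CPM, for log2 fold changes of -1.10 and -0.52. These genes are active in other tissues too, and whole embryos do not show where the RNA came from.

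Among 29 further junction and surface genes, 9 rose, 6 fell and 14 were not called, and the median log2 fold change was -0.02. With cdh5, pecam1 and egfl7 kept in, 50.0% of this list were called, beside 61.7% of all tested genes. The guidance receptor gene robo4, which stabilizes vessels, rose from 29.2 ± 2.89 to 57.3 ± 2.94 CPM, and amotl2a, whose product links VE-cadherin to actin, rose from 93.3 ± 4.27 to 143.5 ± 4.42 CPM. The endothelial adhesion gene esamb fell from 7.67 ± 0.34 to 1.53 ± 0.37 CPM, a log2 fold change of -2.31 (standard error 0.25, edgeR adjusted p = 2.0e-09). The gene icn, counted in this list though it encodes an S100 calcium-binding protein, fell from 105.0 ± 11.8 to 53.6 ± 2.27 CPM (SD, n = 3). Whole embryos do not show which cells the RNA of icn, robo4, amotl2a or esamb came from.

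Artery, vein and Notch genes were called higher in 11 of 23 cases and lower in 3. The share called was 60.9%, near the 61.7% of all tested genes. The Notch receptor gene notch3 rose from 157.9 ± 3.66 to 383.8 ± 20.3 CPM and the connexin gene cx43.4 from 80.8 ± 3.08 to 200.5 ± 8.39 CPM, while nr2f2, which sets vein identity, fell by 0.34 and the Notch target hey1 by 0.51 on the log2 scale. Of 11 BMP and TGF-beta genes of vessels, 6 rose and 2 fell, so 72.7% were called beside 61.7% of all tested genes. The transducer gene smad1 and the BMP target id3 rose by 1.00 and 0.66, and the BMP receptor genes bmpr2b and bmpr2a fell by 0.60 and 0.54. Most of these genes act in many tissues, notch3 in mural cells and in the neural tube.

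Of 16 further lymphatic and venous genes, 6 rose and 4 fell, where flt4 was not called. With flt4 kept in, 58.8% of this list were called, beside 61.7% of all tested genes. The scavenger receptor gene stab2, found on veins and early lymphatic vessels in zebrafish, rose from 17.1 ± 1.39 to 101.3 ± 5.64 CPM (mean ± SD of 3 libraries), for a log2 change of 2.57 (standard error 0.08, edgeR adjusted p = 1.6e-22). The lymphatic regulator gene prox1a, which also acts in lens, liver and muscle, fell from 49.6 ± 3.08 to 32.1 ± 3.86 CPM. Of 16 genes of brain vessels and their barrier, 1 rose and 6 fell, so 43.75% were called beside 61.7% of all tested genes. The tight junction gene cldn5a rose from 12.7 ± 1.62 to 24.9 ± 1.28 CPM, and the efflux transporter genes abcg2a and abcb4 fell, abcg2a from 29.8 ± 1.76 to 8.35 ± 0.97 CPM and abcb4 from 20.7 ± 1.498 to 7.16 ± 1.90 CPM. Both transporters are also made outside vessels, in intestine and liver among other organs.

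Mural cells, the pericytes and smooth muscle cells around vessels, had 3 of 21 genes higher and 7 lower. The share called was 47.6%, beside 61.7% of all tested genes. The smooth muscle genes acta2 and myh11a fell, acta2 from 105.1 ± 6.15 to 17.5 ± 0.33 CPM and myh11a from 77.5 ± 4.33 to 14.3 ± 2.38 CPM, for log2 fold changes of -2.58 and -2.44. Gut wall muscle also makes them. Of other smooth muscle genes, named after their values were seen, cnn1b fell and tagln was not called, at log2 fold changes of -1.14 and -0.20. Of the pericyte genes, cspg4 rose by 0.47 on the log2 scale. The genes rgs5a and ndufa4l2a, named after their values were seen, fell, at log2 fold changes of -2.16 and -1.65. Also named after their values were seen, kcnj8, pdgfrb and abcc9 were not called, at log2 fold changes of -0.84, -0.11 and 0.07. Whole embryos do not show which cells the RNA of these genes came from. Of 14 further endocardium and valve genes, 8 rose and 2 fell. With tie1 kept in, 66.7% of this list were called, beside 61.7% of all tested genes. The matrix gene fn1b rose from 399.8 ± 27.3 to 1189 ± 123 CPM and the Notch receptor gene notch1b from 46.1 ± 4.51 to 101.4 ± 1.97 CPM, while id4 fell by 1.07 on the log2 scale.

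Over the 13 vascular lists, leaving out the 10 members, 69 of 189 genes tested rose and 46 fell. The share called was 60.8%, near the 61.7% of all tested genes, and the median log2 fold change was 0.08. By list, with members kept in, it ran from 43.75% (brain vessels and barrier) to 86.7% called (vascular basement membrane). A log2 fold change of at least 1 together with the call was met by 14 of these genes in each direction and, among the members, by tek. The share of all tested genes that met both was not computed, so these counts have no background beside them.

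**Figure D5:**
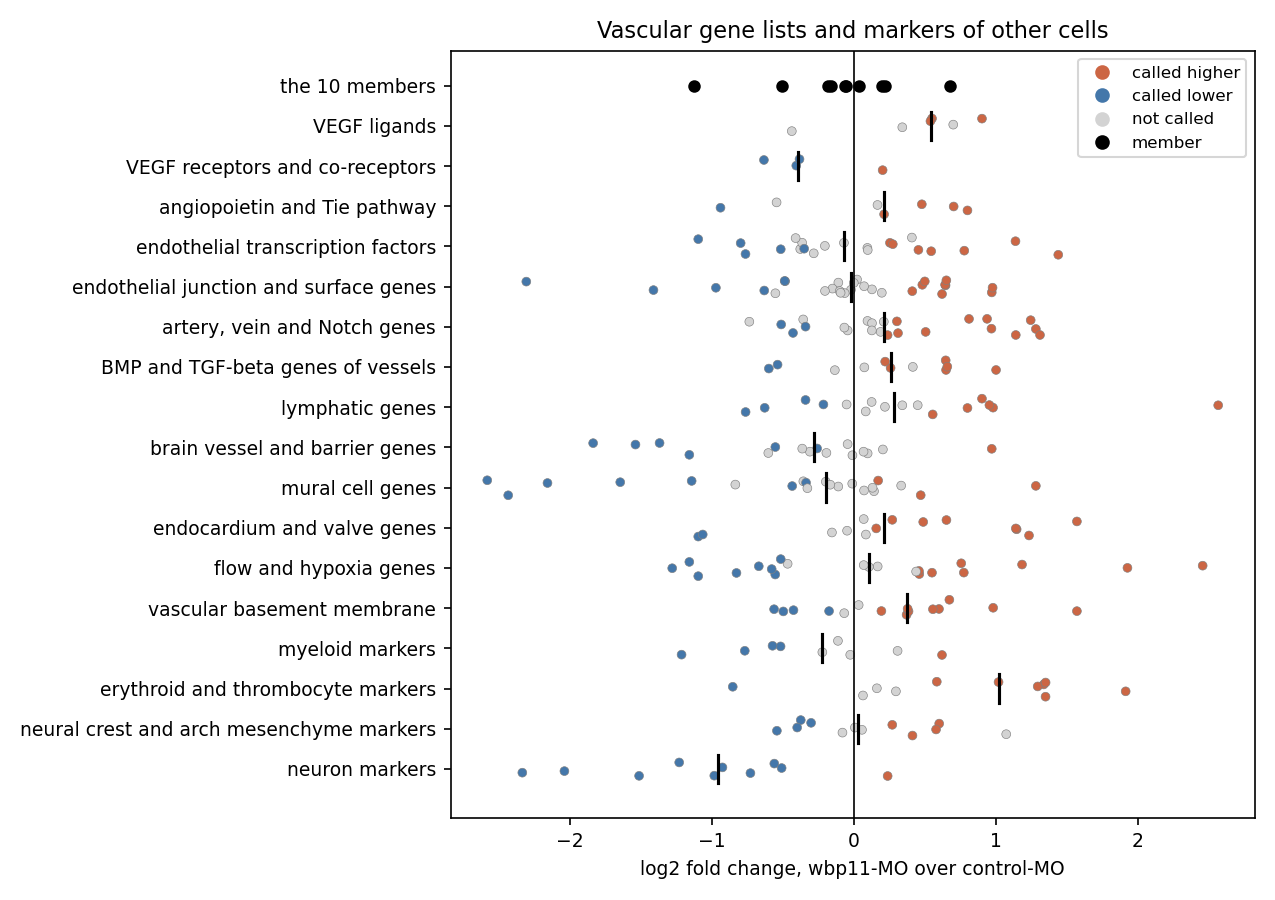
Fold changes of the 10 members (black) and of the other genes of each list. The horizontal axis is the log2 fold change of wbp11-MO over control-MO, orange points were called higher, blue lower and grey not called, and vertical bars are list medians over the genes shown. The members lie between -1.13 and 0.68, and the mural cell and lymphatic lists reach -2.58 and 2.57.

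Markers of other cells that share some of these transcripts were called in 55.6% (myeloid), 72.7% (erythroid and thrombocyte) and 66.7% (neural crest and arch mesenchyme) of the genes tested, beside 61.7% of all tested genes. All 10 neuron markers, described above with the neuropilins, were called. Of 9 myeloid markers, 1 rose and 4 fell. Their summed levels ran from 85.3 to 88.2 CPM in the controls and from 59.2 to 65.1 CPM in the wbp11-MO libraries. Among those that fell, mpx had a log2 fold change of -1.21 and mpeg1.1 one of -0.77 (edgeR adjusted p = 3.9e-09 and 8.9e-04). Both were called in 14 of 14 alternatives. The riser, marco (edgeR adjusted p = 0.022), was called in 10 of 14 alternatives. Its call was lost, for example, without control-MO replicate 2 (edgeR adjusted p = 0.10, range over all settings 0.0090 to 0.10). The gene lyz, named after its values were seen, had 2 counts over the controls and 1 over the others. Of 11 erythroid and thrombocyte markers, 7 rose and 1 fell, with sums from 1512 to 1667 CPM against 2374 to 2524 CPM. Of these 11 genes, 10 had a log2 fold change above 0, and hbbe2 had one of -0.85. The thrombocyte gene itga2b, also named after its values were seen and too low to be tested, had 33 counts over the controls. It had 0 over the wbp11-MO libraries, and 1 untested gene does not describe thrombocytes. The list also holds the thrombocyte genes gp1bb and mpl, whose values are not given here. Neural crest and arch mesenchyme markers, which matter for fli1a, rose in 4 of 12 cases and fell in 4, with a median log2 fold change of 0.03 and sums from 4633 to 5102 CPM against 3418 to 3578 CPM, most of it col2a1a. The part of these cells in the values of pecam1 and fli1a was not tested.

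The genes whose profile over the 6 libraries was closest to kdrl, by root mean square difference of centred log2 CPM, were tmem263, stx5al and slc35a1, at 0.022, 0.022 and 0.024. The closest to cdh5 were st8sia5, kif5c and brox, at 0.019, 0.028 and 0.029. With 2 groups of 3 libraries, such likeness describes these libraries alone.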

How the data were processed

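Per the file headers, the deposited table holds read counts and FPKM per gene and library beside gene length and coordinates. The deposited counts were not normalized. Each deposited FPKM equals the count divided by gene length and column total, as checked on every value. FastQC 0.12.1, HTSeq 2.0.5 and the GRCz11 build are listed in the submitters' processing notes. The aligner, annotation release, strand setting and handling of multi-mapping reads were not found in the labels, so reads of overlapping or near-identical genes may be misassigned. Whether pools came from separate clutches is not stated, so p-values measure the spread between these pools.

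The main test was run with edgeR 4.0.16 under R 4.3.3 (filterByExpr, TMM, quasi-likelihood F-test, group as the sole term, all 6 libraries). Standard errors were derived from each estimate and its F value. CPM use TMM-adjusted totals. Ratios were taken after adding 0.5 to counts and tested by exact permutation in SciPy 1.17.1. Libraries of a group differed by more than sampling noise (chi-square per degree of freedom of at least 2.59), so none was treated as a duplicate. Alternatives were RLE and upper-quartile factors, other filters, a replicate block, DESeq2 1.42.0, limma-voom (limma 3.58.1), leaving out each library and, added after seeing the data, library totals without TMM factors.

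The members and lists were chosen with earlier results of these data known. Of 257 list symbols, 249 matched a table symbol. Named genes are all members, up to 2 called genes per list and direction by adjusted p, and the 3 genes most like kdrl and cdh5. On simulated data the edgeR script called 46 of 67 genes planted at 1.5-fold, 55 of 67 at 2-fold and 66 of 66 at 4-fold. Of 19446 unchanged genes, out of 19646 in all, it called 9. In the libraries described here 61.7% of the genes tested were called. How the script performs with so large a share of genes changed was not tested.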

Additional observations from a re-analysis of the deposited data

How the results depend on the processing

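The counts of members called, 2 higher and 2 lower, were the same with RLE factors, both other filters, DESeq2, limma-voom and the replicate block. Upper-quartile factors gave 2 and 3, and library totals without TMM factors gave 1 and 3, since kdrl was no longer called and cdh5 was. Leaving out each library gave 2 to 3 higher and 2 to 3 lower, and 61 to 68 higher and 44 to 50 lower among the other vascular genes. With a log2 fold change of at least 1 also required, 0 members were higher and 1 lower, and 14 other vascular genes were higher and 14 lower. How many of all tested genes met both criteria was not computed.

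The log2 fold change of kdr turned to -0.00069 with upper-quartile factors, -0.038 with library totals, and between -0.030 and -0.023 without replicate 1 of either group or replicate 2 of wbp11-MO, with -0.030 to 0.13 over all libraries left out in turn. That of flt4 turned to 0.0024 without replicate 2 of the controls and 0.0020 without replicate 1 of wbp11-MO (range -0.16 to 0.0024). The ratio of pecam1 to cdh5 turned to 0.12 and 0.0098 without replicates 1 and 2 of the controls and to 0.16 without replicate 1 of wbp11-MO (range -0.16 to 0.16). None of these was called. The cause of these changes was not tested.

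Pools of equal number did not deviate together (correlations from -0.038 to 0.0098), and pools of unequal number had correlations from -0.035 to 0.052. With 3 libraries per group, this check cannot tell whether equal numbers share a clutch or day. With the replicate block, 2 members were higher and 2 lower, and 68 and 46 other vascular genes. Depth limits tek, flt1 and egfl7, which rest on 34 to 153 counts per library.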

Other observations

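The lists of vascular basement membrane genes and of flow and hypoxia genes were counted above among the 13 vascular lists, and some of their genes (fn1b, klf2a, klf2b and vegfaa) were described there. Of 15 basement membrane genes and their integrins, 9 rose and 4 fell, so 86.7% were called beside 61.7% of all tested genes. The integrin gene itgb1b rose from 46.0 ± 4.74 to 90.7 ± 3.81 CPM (SD, n = 3), while the collagen gene col4a2 fell from 65.4 ± 5.40 to 44.3 ± 2.07 CPM and the matrix gene sparc from 1029 ± 58.8 to 766.3 ± 16.7 CPM. Of 21 flow and hypoxia genes, 8 rose and 8 fell, and 76.2% were called beside the same 61.7%. The glycolysis regulator gene pfkfb3 rose from 26.0 ± 4.55 to 99.4 ± 2.60 CPM, a log2 fold change of 1.93 ± 0.08 (SE), and its relative pfkfb4b fell from 89.6 ± 5.38 to 50.5 ± 2.38 CPM. The hypoxia-inducible factor gene hif1al rose by 0.76 on the log2 scale. These genes are expressed in many tissues, and their values are given without an explanation.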
